A study of Mus musculus with 96 samples.

Results

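The 201 genes described here are noncoding and small structural RNAs of the mouse striatum. They were chosen by symbol from 16221 genes in the 3 deposited expression tables: small nucleolar RNAs (Snora, Snord), small Cajal body RNAs (Scarna), snoRNA host genes (Snhg and Gas5), microRNA genes (Mir followed by a digit), the RNase RNAs Rmrp and Rpph1, and the long noncoding RNAs Malat1, Neat1, Meg3, Rian, Mirg and Miat. The choice was by symbol alone, but only among genes that the deposited tables held, and these tables leave out genes of low level. By class there were 118 microRNA loci, 28 box C/D snoRNAs, 27 box H/ACA snoRNAs, 12 snoRNA host genes, 6 long noncoding RNAs, 5 scaRNAs, 3 microRNA host genes (Mir143hg, Mir17hg and Mir22hg) and 2 RNase RNAs. The tables held 132 of them in the Q175 and WT libraries, 199 in the 1-month R6/2 and NCAR libraries and 130 in the 2- and 3-month R6/2 and NCAR libraries, with 114 in all 3.

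RNA had been sequenced from 96 libraries in 24 groups of 4. Q175 is a knock-in model of Huntington's disease, with a long CAG stretch placed in the animal's own Htt gene; WT of the same strain, C57BL/6J, served as its control, with ages of 2, 6 and 12 months. R6/2 is a transgenic model whose inserted DNA encodes only the start of human huntingtin, also with a long CAG stretch; it was compared with NCAR, the control name in the labels, at 1, 2 and 3 months, both of a CBA x C57BL/6 background. Mice of every group, controls included, had an adeno-associated virus injected into the striatum. Each genotype and age gave 4 libraries of IP RNA, recovered by immunoprecipitation, and 4 of input RNA, taken from the whole tissue. The labels name neither the cargo or promoter of the virus nor the protein that was precipitated, while the series title concerns astrocytes. All RNA was labelled polyA, and the R6/2 and NCAR libraries of 1 month were sequenced under another run label than those of 2 and 3 months. Whether each library of a group is its own animal is not stated, and every p-value therefore reflects the spread among libraries alone, which may be technical.

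These RNAs are not translated into known proteins, and they leave the nucleus to different degrees. Box C/D and box H/ACA snoRNAs are cut from introns, stay in the nucleolus in complexes with fibrillarin or dyskerin, and guide ribose methylation and pseudouridylation of ribosomal RNA. The scaRNAs do the same for spliceosomal RNAs in Cajal bodies. The host genes of snoRNAs and microRNAs carry these RNAs in their introns or exons, and their spliced transcripts reach the cytoplasm, where many are short-lived. Malat1 sits in nuclear speckles and Neat1 builds paraspeckles. Meg3, Rian and Mirg are transcribed from the maternal copy of the imprinted Dlk1-Dio3 domain. MicroRNA hairpins are excised in the nucleus and cut further in the cytoplasm. Mature microRNAs are too short for a polyA mRNA library, so counts at a microRNA locus are reads of longer transcripts that cover the hairpin.

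Sequences are shown for the ends of 3 small RNAs, 2 of them far lower and 1 little lower in IP than in input, because the box motifs that name their families lie there. They were read 5′ to 3′ from the GRCm38 genome (mm10) at GENCODE vM21 positions and are written as DNA, 30 bases each. Snord17 lies at chr2:144265979-144266216 on the minus strand, Scarna6 at chr1:87784556-87784820 on the plus strand and Scarna13 at chr12:105031075-105031349 on the minus strand. Capitals mark the C box TGATGA, the D box CTGA and the ACA box.
Snord17, first bases: gtgaaaTGATGAttctgtttatccattcgc
Snord17, last bases: caccaagatgagtggtgcaaatCTGAtcac
Scarna6, first bases: ggtcagTGATGAatagtaaaaggtctgact
Scarna6, last bases: ggctatgatctgacattttaagCTGAgacc
Scarna13, last bases: ttctgttggacactaagtactgccACAaaa
A C box (TGATGA in the first 30 bases) together with a D box (CTGA in the last 20 bases), on the sense strand, was present in 18 of 27 GENCODE sequences of box C/D members. The same pair was present in 20.3% of all 1558 GENCODE snoRNA and scaRNA genes. An ACA box (ACA in the last 7 bases) was present in 27 of 29 box H/ACA sequences and in 46.7% of all 1558.

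The mature microRNAs of loci named below are given as RNA from RefSeq (GRCm38.p6), with the seed, bases 2 to 8, in capitals. A mature sequence was found for 111 of the 118 loci. Mir132 and Mir212 share the seed AACAGUC, and Mir453 shares its seed with Mir496a.
mmu-miR-212-3p: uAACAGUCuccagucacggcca
mmu-miR-132-3p: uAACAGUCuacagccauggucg
mmu-miR-453: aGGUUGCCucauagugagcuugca
mmu-miR-134-5p: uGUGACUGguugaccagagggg
mmu-miR-543-3p: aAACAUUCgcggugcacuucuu
mmu-miR-22-3p: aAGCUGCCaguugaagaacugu
mmu-miR-568: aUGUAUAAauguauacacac
mmu-miR-6390: gAAUUGAUcaggauguaacca
mmu-miR-6236: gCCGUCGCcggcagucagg
The mmu-miR-22 hairpin lies in the transcript of Mir22hg. Of the 118 loci, 23 shared a seed with at least 1 other, in 14 seed groups, among them Mir9-1, Mir9-2 and Mir9-3.

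Many of the small RNA genes cannot be told apart from the genes around them. Of 177 small RNA members with a known position, 132 lay inside another gene on the same strand, and 63 of those overlapped an exon of it. Another gene on the opposite strand overlapped 20, and the strand setting of the counting is not given in the sources used here. The Mir568 hairpin was identical over 83 of 83 bases to a Zbtb20 transcript, the Mir682 hairpin over 95 of 96 bases to the ribosomal protein mRNA Rpl37a, and the Mir703 hairpin over 107 of 109 bases to Eef1a1.

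Depth ran between 41.87 and 84.21 M reads in the 48 libraries of IP RNA, and between 27.12 and 51.19 M in the 48 of input RNA. The members took 0.141 to 0.501% of the reads in IP and 1.34 to 2.26% in input. The summed level of 16 astrocyte markers was 29150 to 75150 CPM (reads scaled to a common total) in IP and 4042 to 8537 CPM in input. That of 12 microglia markers was 51.5 to 144.6 CPM in IP and 486 to 2840 CPM in input, and that of endothelial markers 20.2 to 67.5 CPM in IP and 140.0 to 294.9 CPM in input. Within the 2- and 3-month R6/2 and NCAR run, some input libraries stood apart in the smallest RNAs. Rmrp was at 528, 1190, 222.1 and 1846 CPM in R6/2 2-month input, against 187.7, 1002, 338.6 and 1239 CPM in NCAR 2-month input. Scarna10, a scaRNA, was at 4.51, 21.3, 3.48 and 34.7 CPM in the same R6/2 libraries, against 1.78, 23.9, 3.64 and 22.4 CPM in the NCAR libraries. The 2nd and 4th library of each genotype were high in both RNAs. No cause of this split was tested.

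In IP, nearly all classes of these RNAs were depleted relative to input. IP was compared with input in each of the 12 combinations of genotype and age, with limma on log2 CPM and Benjamini-Hochberg adjustment over all genes, and a gene was called at an adjusted p under 0.05. Of the 201 members, 168 passed the filter on low values in at least 1 of the 12 comparisons and 33 in none. Between 59 and 111 members of a control group passed only through their input libraries, which favours a lower level in IP. The counts that follow therefore cover members that passed in IP and in input alike. In Q175 mice, 36 of 49 such members were called lower in IP at 2 months, 32 of 43 at 6 months and 39 of 48 at 12 months, where 40.3%, 39% and 38.4% of all genes were called lower. In WT mice the counts were 34 of 42, 30 of 39 and 35 of 42 at the same ages, against 40.9%, 39.4% and 39.1% of all genes. In R6/2 mice they were 28 of 36, 32 of 40 and 26 of 34 at 1, 2 and 3 months, against 35.9%, 29.3% and 27.8% of all genes. In NCAR mice they were 28 of 33, 24 of 29 and 24 of 28, against 36.8%, 28.5% and 27.7% of all genes. The median log2 IP over input of these members was, by rising age, -1.61, -1.88 and -1.67 in WT mice and -2.03, -2.12 and -1.99 in NCAR mice. The median over all genes lay between -0.04 and 0 in these 6 comparisons.

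Counted over all filters, 77 members were tested in all 12 comparisons, 41 of them were called lower in all 12, and 2, Mir568 and Mir6390, were called higher in all 12. These counts include members that passed only through their input libraries. The shares of all genes called in all 12 or in any comparison were not counted. Only 7 members were called higher in any comparison: Mir568, Mir6390, Mir1901, Mir6236, Mir8091, Mir341 and Snhg18. In single comparisons the shares of all genes called higher were, by rising age, 38.1%, 36.5% and 35.9% in Q175 and 38.8%, 37.5% and 37.9% in WT. They were 34.5%, 29% and 27.3% in R6/2 and 34.9%, 27.3% and 29% in NCAR. Mir3061, Mir540 and Mir744 were tested and never called.

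**Figure D1:**
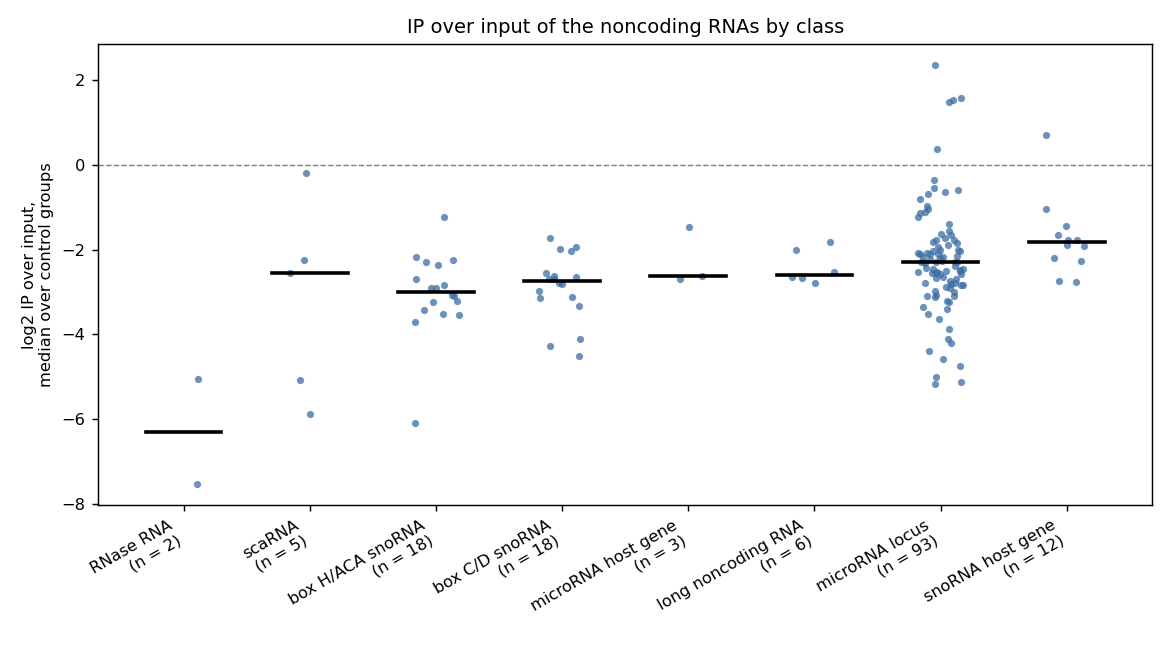
Each point is 1 member tested in at least 1 control group; the y axis is its log2 IP over input, as the median over the control groups (WT and NCAR) in which it was tested, and the black bar is the median of the class. Most small RNAs entered through their input level alone, so that the filter favoured a negative sign. Rmrp lies lowest at -7.52 and Mir568 highest at 2.35.

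The 2 RNase RNAs had the lowest IP over input ratios of the classes. All RNA was labelled polyA, and whether these small RNAs were captured equally well in IP and input libraries was not tested. Rmrp, the RNA of RNase MRP, which acts in ribosomal RNA processing and elsewhere, was at 10.6, 12.1, 11.8 and 10.2 CPM in WT 12-month IP, against 2479, 2202, 2029 and 1681 CPM in input. The log2 IP over input was -7.55 ± 0.10 (SE, limma, adjusted p = 3.7e-12), and over the 12 comparisons it ran between -7.98 and -6.01. Rpph1, the RNA of RNase P, which trims the leaders of tRNA precursors, was at 108.2, 145.9, 145.4 and 120.4 CPM in WT 12-month IP, against 4378, 4052, 3830 and 3805 CPM in input. No library overlapped between IP and input for either RNA. In WT 12-month mice the same held for 71.9% of all genes tested and for 102 of 122 members. Rpph1 varied more among the IP libraries of the R6/2 cohort than elsewhere. It was at 16.4, 96.5, 158.4 and 366 CPM in NCAR 2-month IP, against 2933, 3042, 3544 and 3165 CPM in input (log2 -5.02 ± 0.74). Over all 12 comparisons its log2 ratio ran between -6.70 and -4.31, and both RNase RNAs were called lower in all 12. Rpph1 shares an exon with Ccnb1ip1 on the same strand in the annotation.

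The scaRNAs split widely. Scarna6 was nearly absent in IP, at 0.0907, 0.229, 0.0406 and 0.0391 CPM in WT 12-month IP, against 8.63, 7.58, 7.12 and 5.11 CPM in input (log2 -6.40 ± 0.47, limma adjusted p = 1.8e-07). Scarna6 passed the filter there only through its input libraries, which favours a lower level in IP. Scarna10 was at 0.680, 1.04, 0.629 and 0.450 CPM in the same IP libraries, against 26.5, 29.2, 24.3 and 20.2 CPM in input (log2 -5.20 ± 0.22). Scarna2 and Scarna9 had median log2 ratios of -2.25 and -2.55 over the control groups. Scarna13 was the exception: it was at 76.5, 69.9, 57.2 and 63.2 CPM in WT 12-month IP, against 97.8, 97.6, 90.01 and 82.3 CPM in input (log2 -0.47 ± 0.09, limma adjusted p = 0.00047). Its IP and input libraries did not overlap there, but in NCAR mice at 3 months they did, at 42.8, 48.1, 55.6 and 41.6 CPM in IP, against 59.9, 42.3, 35.3 and 44.2 CPM in input. Scarna13 was called lower in 6 of 12 comparisons and its log2 ratio ran between -0.54 and 0.37. It lies in an intron of Snhg10 in the annotation, and Snhg10 itself had a log2 ratio of -1.63 in WT 12-month mice. For Scarna10 in Ncapd2 and Scarna6 in Atg16l1 the order was the other way, with the surrounding gene at 0.20 and -0.55. For Scarna6 that order is set in part by the filter.

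**Figure D2:**
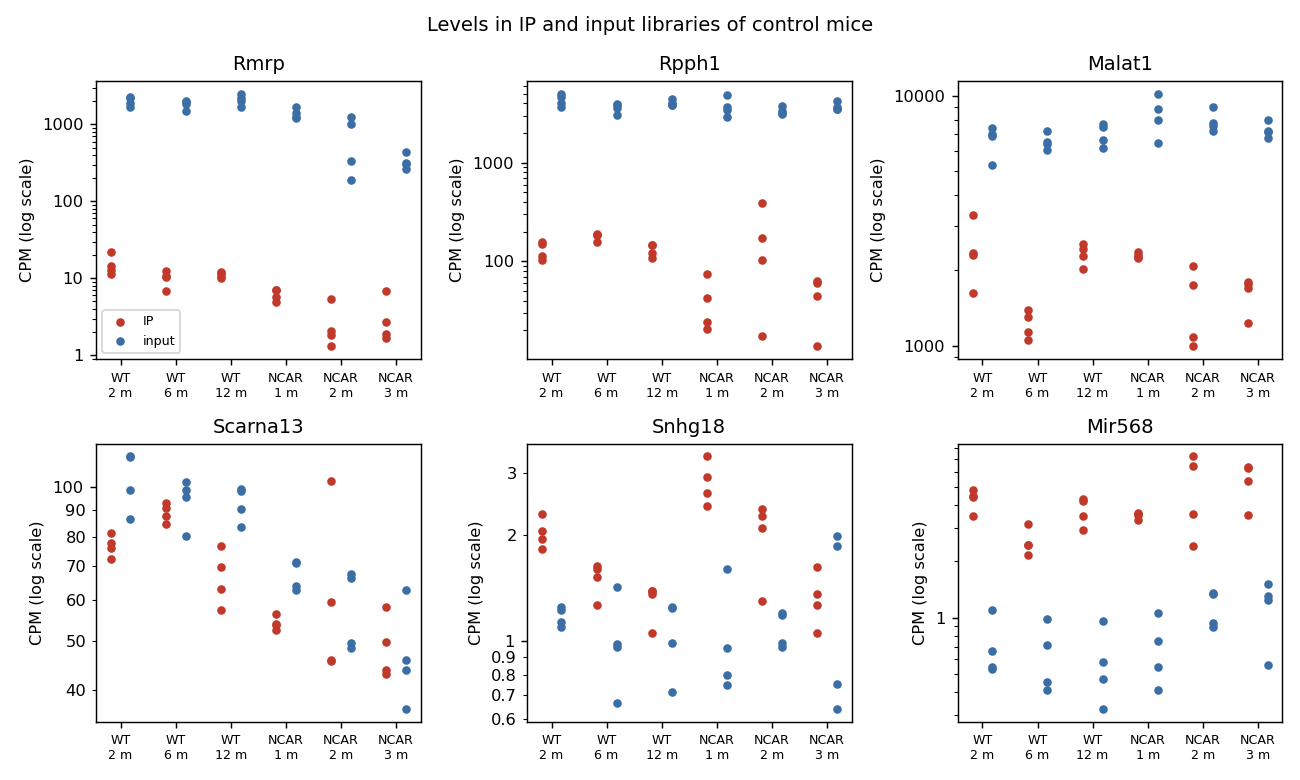
CPM on a log axis in the 4 IP (red) and 4 input (blue) libraries of each control group, with 1 scaling per run. Rmrp, Rpph1 and Malat1 IP libraries lie below all input libraries of their group, Mir568 IP libraries lie above them, and Scarna13 lies close to input. Snhg18 IP libraries lie above all input libraries in some groups and overlap them in WT at 6 and 12 months and in NCAR at 3 months.

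Most snoRNAs could be tested only because of their input level. In WT 12-month mice 12 box C/D and 15 box H/ACA snoRNAs were tested, and only 2 of each class passed the filter in IP as well. Snord17, a box C/D RNA with the C and D boxes given earlier, was at 0.204, 0.265, 0.244 and 0.117 CPM in WT 12-month IP, against 5.45, 5.79, 5.96 and 3.12 CPM in input (log2 -4.59 ± 0.30, limma adjusted p = 6.8e-08). Snord17 passed the filter there only through its input libraries, which favours a lower level in IP. It was called lower in all 12 comparisons, with log2 ratios between -4.74 and -2.74. Snx5, in whose intron it lies, had a log2 ratio of -0.22 in WT 12-month mice, and the contrast with Snord17 is set in part by the filter. Snord47 and Snord45b were as low, with medians of -4.50 and -4.27 over the 1 control group in which each was tested. The box C/D members least depleted by the control medians were Snord2 (-1.73), Snord53 (-1.94) and Snord42b (-1.98). Among box H/ACA snoRNAs the lowest control medians were those of Snora74a (-6.08), Snora68 (-3.70, 1 control group) and Snora16a (-3.54), and the highest those of Snora30 (-1.23), Snora7a (-2.17) and Snora81 (-2.24). Snora30 was called in 3 of its 9 comparisons. In WT 12-month libraries it was at 0.340, 0.212, 0.304 and 0.176 CPM in IP, against 0.293, 0.403, 0.548 and 0.330 CPM in input, and the groups overlapped.

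The snoRNAs can be set beside the genes that carry them, although few reached the filter's level in every IP library as well as every input library, so that their low IP over input ratio is set in part by the filter. In WT 12-month mice, 8 of 8 box C/D and 9 of 10 box H/ACA snoRNAs with a measured surrounding gene had a lower log2 ratio than that gene. The median was -2.60 for the box C/D snoRNAs and -1.40 for the genes around them. For box H/ACA snoRNAs it was -2.86, and -1.63 for their genes. In NCAR 1-month mice 12 of 13 box C/D and 12 of 12 box H/ACA snoRNAs were below their gene. Of the snoRNAs that passed in both IP and input, 2 of 2 box H/ACA were below their gene in WT 12-month mice and 1 of 1 in NCAR 1-month mice, and there was no box C/D snoRNA of that kind in either. Of microRNA loci, 17 of 30, 19 of 34 and 17 of 34 were below the surrounding gene in WT mice of 2, 6 and 12 months, and 35 of 43, 24 of 34 and 15 of 27 in NCAR mice of 1, 2 and 3 months. Among those that passed in both IP and input, 5 of 10 were below in WT 12-month mice and 1 of 3 in NCAR 1-month mice. These pairs share reads wherever the spans overlap, and no test was made of them.

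All 6 long noncoding RNAs were called lower in IP in all 12 comparisons. Malat1 was at 2274, 2442, 2552 and 2021 CPM in WT 12-month IP, against 7423, 7619, 6614 and 6096 CPM in input (log2 -1.58 ± 0.11, limma adjusted p = 1.5e-07). Neat1 was at 22.4, 30.5, 39.0 and 28.1 CPM in the same IP libraries, against 96.1, 100.7, 93.5 and 86.1 CPM in input (log2 -1.67 ± 0.13). IP and input did not overlap for either of these nuclear body RNAs. Their control medians were -2.01 and -1.83. The imprinted RNAs were somewhat lower, with control medians of -2.66 for Meg3, -2.78 for Rian and -2.53 for Mirg, and Miat, a nuclear RNA of neurons among other cells, had -2.65. Rian was at 73.4, 80.0, 104.2 and 65.1 CPM in WT 12-month IP, against 435.7, 442.4, 460.0 and 489.7 CPM in input. Each Rian library in IP was below every input library.

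In the R6/2 cohort Neat1 was the least even of them. It was at 9.26, 6.58, 1.04 and 4.55 CPM in NCAR 2-month IP, against 4.86, 26.2, 24.8 and 52.0 CPM in input, and the groups overlapped. The log2 ratio there was -2.29 ± 0.79 (limma adjusted p = 0.032).

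Most of the spliced host genes were depleted as well. Gas5, which carries box C/D snoRNAs and encodes no known protein, was at 29.0, 30.0, 34.9 and 30.0 CPM in WT 12-month IP, against 103.6, 96.02, 95.4 and 97.3 CPM in input (log2 -1.66 ± 0.06, limma adjusted p = 1.3e-09). The lowest control medians were those of Snhg8 (-2.77), Snhg11 (-2.73) and Snhg6 (-2.26), and each was called lower in all 12 comparisons. Snhg3 and Snhg5 had -1.44 and -1.03. Snhg18 differed in direction. It was at 2.57, 2.85, 3.27 and 2.36 CPM in NCAR 1-month IP, against 0.934, 0.730, 1.56 and 0.781 CPM in input (log2 1.52 ± 0.26, limma adjusted p = 0.00050). Snhg18 was called higher in 7 of 12 comparisons, was positive in all 12 and ran between 0.19 and 1.56. The microRNA host genes had control medians of -2.70 for Mir143hg, -2.62 for Mir17hg and -1.48 for Mir22hg.

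Among microRNA loci, Mir568 was the highest in IP. It was at 4.26, 2.94, 4.20 and 3.50 CPM in WT 12-month IP, against 0.464, 0.957, 0.322 and 0.572 CPM in input (log2 2.77 ± 0.29, limma adjusted p = 4.1e-06). Zbtb20, a transcription factor gene that covers the whole hairpin in an exon, had a log2 ratio of 1.97 in the same comparison. Mir6390 was at 3.81, 3.98, 3.41 and 2.91 CPM in WT 12-month IP, against 1.49, 1.81, 2.06 and 0.902 CPM in input, and it lies in an exon of Gm6145, a gene without known protein. IP and input did not overlap for either locus, and both ratios were above 1 in all 12 comparisons (Mir568 1.87 to 3.11, Mir6390 1.18 to 2.46).

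Mir6236 was tested in the 8 comparisons of the Q175 cohort and the 1-month R6/2 cohort and was called higher in all 8. In NCAR 1-month mice it was at 56.7, 115.9, 56.5 and 61.9 CPM in IP, against 1.34, 0.504, 1.58 and 1.05 CPM in input (log2 6.06 ± 0.36, limma adjusted p = 2.4e-07). In WT 12-month mice it was at 8.39, 11.7, 10.8 and 8.99 CPM in IP, against 3.13, 4.23, 2.64 and 1.87 CPM in input (log2 1.79 ± 0.21). Strain, age and run differ between these 2 control groups and cannot be told apart. Mir1901 was called higher in 9 of 12 comparisons, with a control median of 1.53. The lowest control medians of microRNA loci were those of Mir154 (-5.18), Mir677 (-5.12) and Mir691 (-4.99), each tested in 1 control group. In NCAR 2-month mice Mir154 had no read in 3 of 4 IP libraries, 0.0614 CPM in the other, and 0.305, 0.552, 0.207 and 0.436 CPM in input. Mir154 thus passed the filter only through its input libraries. Mir682, whose hairpin matches Rpl37a, was at 32.5, 29.7, 36.6 and 29.6 CPM in WT 12-month IP, against 129.1, 106.7, 115.1 and 106.9 CPM in input.

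Protein-coding genes of the same pathways gave a background for these values in WT 12-month mice. Of 14 snoRNP protein genes, 3 were called higher and 4 lower in IP (median log2 -0.02), with Nop10 at -0.95 and Nhp2 at -0.94, which are box H/ACA core proteins, and the assembly factors Naf1 at 0.96 and Nolc1 at 0.49. Of 11 RNase P and RNase MRP protein genes, 2 were higher and 5 lower (median -0.11), with Pop5 at -1.20 and Rpp21 at -0.66. Of 10 Cajal body factors, 6 were higher and 3 lower, with Gemin5 at 0.49 and Smn1 at -0.60. Of 14 paraspeckle protein genes, 6 were higher and 4 lower, with Smarca4 at 0.69. Of 14 microRNA biogenesis genes, 9 were higher and 4 lower (median 0.46), with the Argonaute gene Ago2 at 0.98 and Lin28b at -1.49. Of 14 genes of nonsense-mediated decay, 9 were higher and 3 lower (median 0.26). Of 8 coding neighbours in the imprinted domain, 2 were higher and 2 lower, with Begain at -0.95 and Wars at 0.70. The median over all genes was -0.01.

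Other lists lay on the low side with the members. Of 14 noncoding RNAs outside the symbol rule, 1 was called higher and 9 lower in WT 12-month IP (median -0.60), with the telomerase RNA Terc at -6.03 and Firre at -2.26. Among 81 cytosolic ribosomal protein mRNAs, which are translated, 2 were higher and 77 lower (median -1.45), with Rplp1 at -2.50 and Rps21 at -2.31. In the same comparison, 16 of 16 astrocyte markers were called higher (median 2.40), 12 of 12 microglia markers lower (-5.27), 8 of 8 endothelial markers lower (-3.07) and 10 of 11 medium spiny neuron markers lower (-0.82). The part of these cell types in the members' values was not tested, and in bulk RNA fewer cells of a type and less RNA per cell cannot be told apart.

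Few of these RNAs were called between genotypes, and the low level of many microRNA loci and snoRNAs limits what could be called. Over the 12 comparisons of Q175 with WT or R6/2 with NCAR, 22 members were called in at least 1, led by Miat in 5, Malat1 and Snhg12 in 4 each, and Mir22hg, Mirg, Rpph1 and Scarna13 in 3 each. The share of all genes called in at least 1 was not counted, and shares by comparison follow. At the first age limma called 0 of 81 members in Q175 IP, where 0.0199% of all genes were called. There 27 of the 81 had an unadjusted p under 0.05, as did 749 of all 15038 genes. Limma called 0 of 123 in Q175 input at 2 months (0.00652% of all genes). There 4 of the 123 had an unadjusted p under 0.05, as did 524 of all 15342 genes. In R6/2 IP at 1 month limma called 0 of 73 (0.0794% of all genes). There 10 of the 73 had an unadjusted p under 0.05, as did 1799 of all 15119 genes. Voom weights also gave 0 in these 3 comparisons. In R6/2 input at 1 month 1 of 190 was called, against 12.3% of all genes.

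At later ages Q175 IP had 1 of 64 members called at 6 months (3.8% of all genes) and 1 of 84 at 12 months (6.97%). Q175 input had 7 of 131 at 6 months (13.9%) and 13 of 132 at 12 months (18.4%). R6/2 IP had 2 of 69 at 2 months (5.61%) and 3 of 64 at 3 months (14.2%), and R6/2 input had 5 of 128 at 2 months (16%) and 10 of 118 at 3 months (28.1%). In each of the 12 comparisons the share of members called was below that of all genes. Genotypes did not overlap for 15 of 131 members and 19.9% of all genes in Q175 6-month input, and for 15 of 132 and 22.4% at 12 months. In R6/2 input this held for 7 of 128 and 22.8% at 2 months, and for 11 of 118 and 30.7% at 3 months. In R6/2 IP it held for 6 of 73 and 8.1% at 1 month, 8 of 69 and 14.5% at 2 months, and 7 of 64 and 20.1% at 3 months. Of the called members, 11 of 13 in Q175 12-month input, 1 of 2 in R6/2 2-month IP and 8 of 10 in R6/2 3-month input passed the filter in both genotypes, and in the other comparisons with a call all did. Each call was refitted 8 times, without each of the 8 libraries in turn. In these fits the filter asked only for as many libraries as the smaller group then held, so that more genes could be tested. Calls said to be held in fewer than 8 of these fits reached a highest adjusted p between 0.052 and 0.14 by limma. The R6/2 IP counts changed when single NCAR libraries were left out, and the parts of the library and of the looser filter in this were not told apart. Without the 2nd NCAR 2-month IP library 14 members were called at 2 months, and without the 3rd NCAR 3-month IP library 15 at 3 months. These 2 libraries held Scarna2 at 15.7 and 8.72 CPM, while the other NCAR IP libraries of the run held 1.10 to 3.74 CPM. Their summed microglia markers were at 76.9 and 127.4 CPM, against 53.1 to 72.3 CPM in the other 6.

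**Figure D3:**
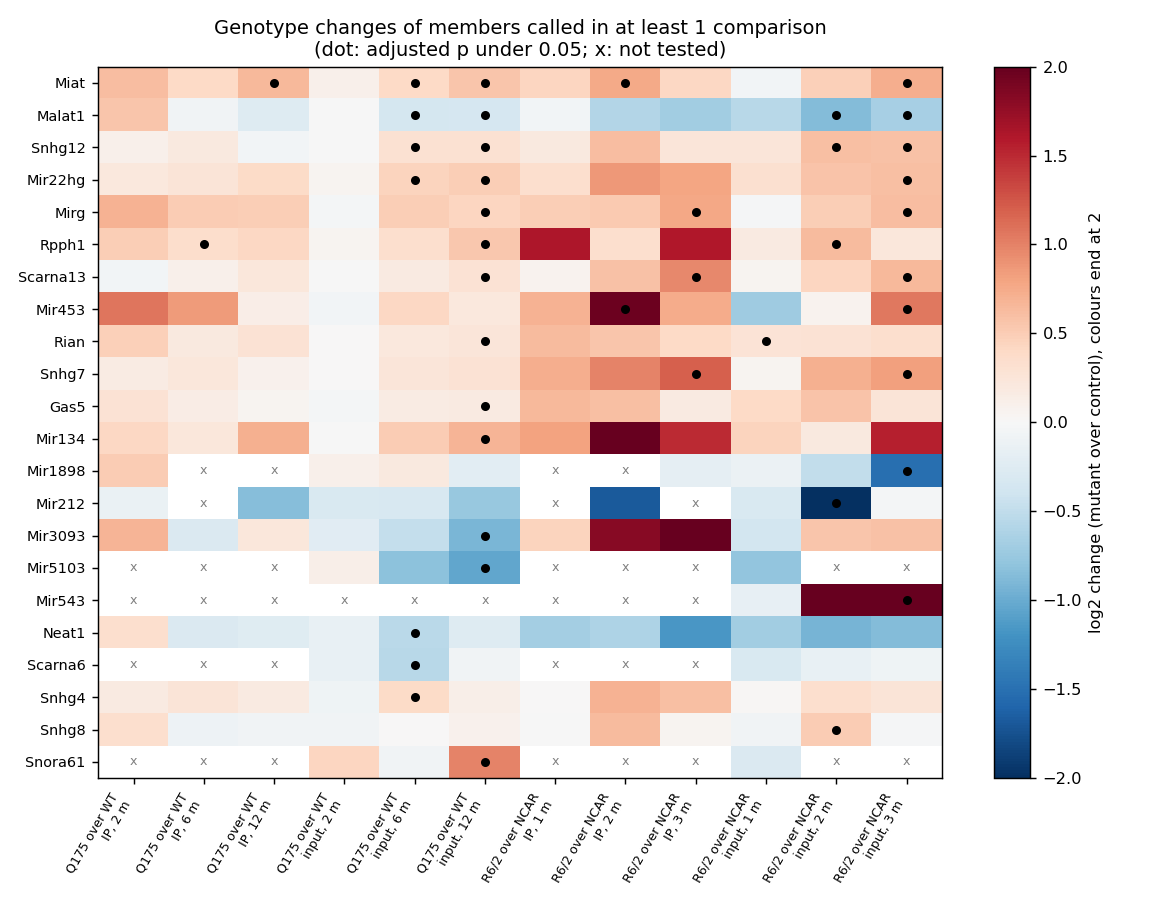
Colour gives the log2 change of Q175 over WT or R6/2 over NCAR for the 22 members called in at least 1 of 12 comparisons (columns), with dots at an adjusted p under 0.05 and crosses where the member was not tested. Miat carries 5 dots, all in the higher direction, and Malat1 4, all lower in input of the 2 models at the later ages.

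Miat, a long nuclear RNA, rose in both models. In Q175 12-month input it was at 78.4, 76.5, 73.6 and 80.5 CPM, against 42.3, 53.0, 55.7 and 62.02 CPM in WT input (log2 0.55 ± 0.09, limma adjusted p = 0.0018). At 6 months Q175 input was at 82.2, 71.0, 76.4 and 62.4 CPM, against 57.0, 60.6, 49.3 and 53.0 CPM in WT input (log2 0.41 ± 0.09, adjusted p = 0.012, limma). Genotypes did not overlap at either age, and both calls held in all 8 fits that each left out 1 library. At 2 months the Q175 input libraries at 47.8, 38.3, 55.1 and 46.8 CPM overlapped the WT input libraries at 42.7, 45.6, 42.8 and 42.6 CPM.

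R6/2 3-month input held Miat at 65.2, 81.8, 84.2 and 86.5 CPM, against 54.4, 38.0, 47.9 and 52.8 CPM in NCAR input (log2 0.72 ± 0.13, limma adjusted p = 0.0027), also without overlap and in all 8 such fits. In IP, Miat rose in Q175 at 12 months, at 16.7, 13.6, 15.9 and 12.1 CPM against 8.55, 10.1, 11.0 and 7.68 CPM in WT (log2 0.64 ± 0.14, adjusted p = 0.020, limma). That call was lost without the 1st or the 4th WT 12-month IP library (highest adjusted p = 0.057). It also rose in R6/2 IP at 2 months, at 8.67, 11.2, 11.1 and 10.2 CPM against 4.85, 6.27, 7.38 and 6.03 CPM in NCAR IP (log2 0.75 ± 0.16, adjusted p = 0.025, limma), a call lost without the 1st or 4th NCAR or the 2nd, 3rd or 4th R6/2 library (highest adjusted p = 0.086, limma). In the annotation Miat is overlapped by Gm26953 on the opposite strand.

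Malat1 fell in input of both models. It was at 4081, 4312, 6128 and 4320 CPM in R6/2 2-month input, against 9786, 8272, 7844 and 8079 CPM in NCAR input (log2 -0.87 ± 0.14, limma adjusted p = 0.0028). At 3 months it was at 5085, 6447, 5413 and 3700 CPM in R6/2 input, against 7972, 7510, 8858 and 7918 CPM in NCAR input (log2 -0.67 ± 0.16, adjusted p = 0.013, limma). Genotypes did not overlap at either age and both calls held in all 8 fits without 1 library. In Q175 input the falls were smaller, at -0.34 ± 0.10 at 6 months and -0.33 ± 0.09 at 12 months (limma adjusted p = 0.043 and 0.028). With the deposited scaling neither Q175 value was called, and they held in 2 and 3 of the 8 fits (highest adjusted p = 0.13 and 0.087, limma).

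**Figure D4:**
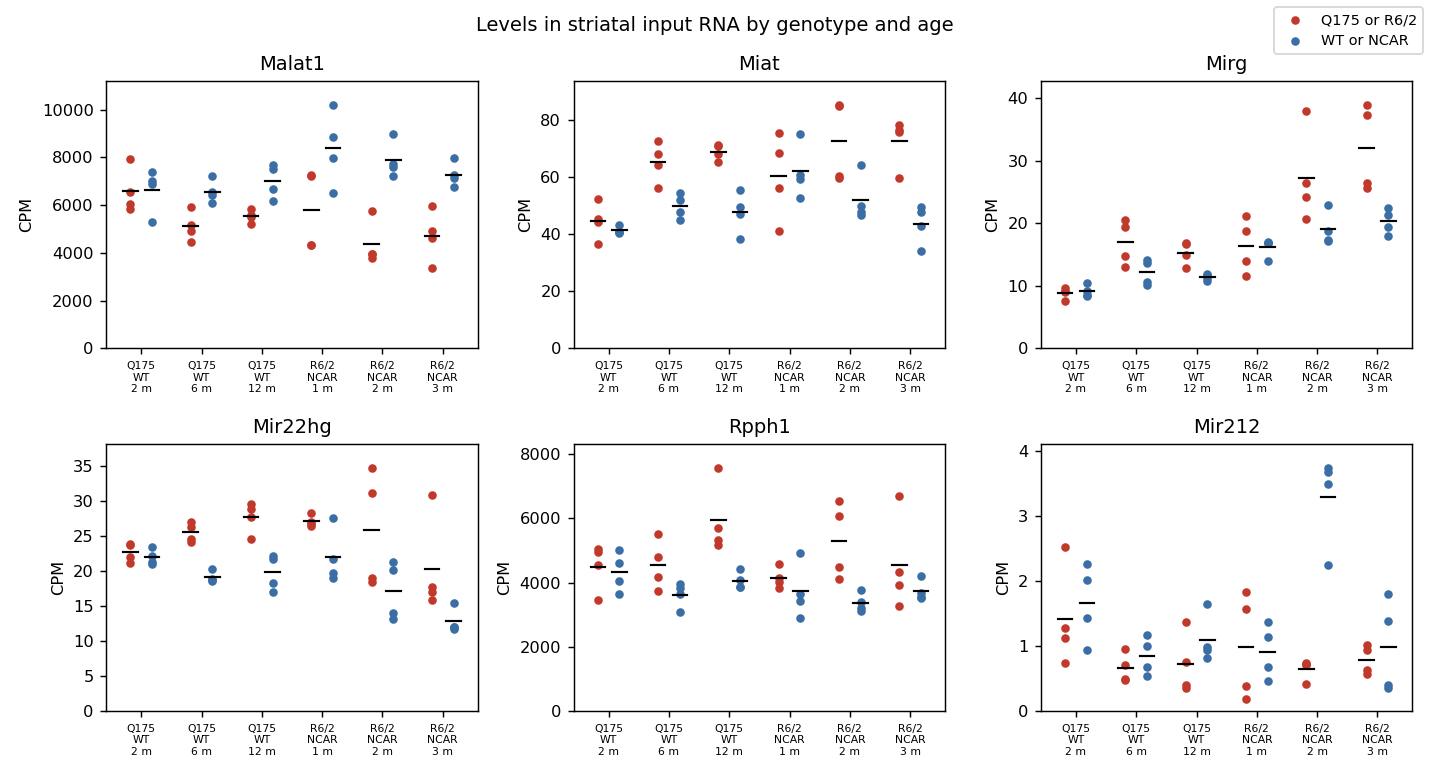
CPM in input RNA, with 1 scaling per run, in the 4 mutant (red, Q175 or R6/2) and 4 control (blue, WT or NCAR) libraries of each age, with black bars at the mean. The means of Malat1 lie lower and those of Miat higher in Q175 at 6 and 12 months and in R6/2 at 2 and 3 months, and Mir212 separates the genotypes at 2 months in the R6/2 cohort.

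Neat1, the paraspeckle RNA, fell in Q175 input at 6 months. It was at 69.9, 74.4, 87.3 and 73.4 CPM in Q175, against 129.6, 116.0, 106.9 and 94.0 CPM in WT (log2 -0.54 ± 0.10, limma adjusted p = 0.0039), with no overlap and in all 8 fits without 1 library. At 12 months Q175 input libraries, at 104.2, 96.4, 69.5 and 87.5 CPM, overlapped WT at 107.8, 113.6, 106.0 and 97.2 CPM (log2 -0.26 ± 0.10, adjusted p = 0.11, limma). The spread was wide in R6/2 3-month input, at 26.0, 36.3, 5.06 and 7.24 CPM, against 27.2, 36.8, 40.7 and 9.46 CPM in NCAR input, and Neat1 was not called there.

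The imprinted chromosome 12 cluster between Meg3 and Mirg held 44 of the members. In Q175 12-month input, 31 were tested, 3 were called higher and none lower, and the median log2 change was 0.23 (0.00 over all genes). In that comparison 18.4% of all genes were called in either direction and 6.63% were called higher. The cluster's share of calls, which rests on 3 members, was below the former and above the latter, and this was not tested. Of the 21 that passed the filter in both genotypes, 16 were positive, 3 were called higher and the median was 0.24. The 3 were Mirg, Rian and Mir134. Mirg, the host of a large microRNA cluster, was at 18.6, 16.8, 18.8 and 14.5 CPM in Q175, against 12.4, 13.3, 13.3 and 12.1 CPM in WT (log2 0.42 ± 0.09, limma adjusted p = 0.0081). Rian, the host of box C/D snoRNAs, was at 579.7, 647.9, 592.7 and 608.0 CPM in Q175, against 488.6, 498.9, 521.8 and 553.3 CPM in WT (log2 0.24 ± 0.06, adjusted p = 0.013, limma). Mir134, which lies in a Mirg exon, was at 2.71, 2.30, 2.68 and 2.82 CPM in Q175, against 1.34, 2.07, 1.79 and 1.42 CPM in WT. The genotypes did not overlap for these 3, nor for 22.4% of all genes tested there. Mirg and Rian held in all 8 fits without 1 library, and Mir134 was lost without the 1st or 4th WT library (highest adjusted p = 0.058, limma). Meg3, the first RNA of the cluster, was not called (log2 0.14 ± 0.07, adjusted p = 0.20, limma).

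In input of R6/2 mice at 3 months 33 cluster members were tested and 3 rose, Mirg, Mir543 and Mir453, with a median of 0.62 over the 33 and 0.02 over all genes. With 28.1% of all genes called there in either direction and 11.8% called higher, the cluster's share of calls was below both. Of the members of all classes tested, 18 passed the filter only in R6/2 and 3 only in NCAR. The 16 cluster members that passed in both had 14 positive changes, 2 of them called, and a median of 0.40. Mirg was at 42.6, 40.4, 29.1 and 28.4 CPM in R6/2, against 24.8, 20.0, 23.7 and 21.5 CPM in NCAR (log2 0.62 ± 0.15, limma adjusted p = 0.012). Mir543 was at 1.32, 0.842, 0.575 and 0.433 CPM in R6/2, against 0.108, 0.149, 0.207 and 0.223 CPM in NCAR, which is a low level in both genotypes, and it was lost without the 2nd NCAR or the 1st or 2nd R6/2 library (highest adjusted p = 0.066, limma). Mir543 passed the filter only in R6/2, which favours a higher level in R6/2. Mir453 lies in a Mirg intron and was called in R6/2 3-month input (log2 1.06 ± 0.35, with overlap) and in R6/2 2-month IP. In that IP it was at 0.509, 0.671, 0.528 and 0.525 CPM, against 0.207, 0.207, 0.0601 and 0.145 CPM in NCAR, and it held in 3 of the 8 fits in each comparison. In the 2-month IP comparison Mir453 passed the filter only in R6/2, which favours a higher level in R6/2. Mirg rose in R6/2 3-month IP as well, at 3.99, 5.36, 5.26 and 4.60 CPM against 2.70, 3.25, 2.31 and 2.99 CPM in NCAR (log2 0.77 ± 0.18, adjusted p = 0.019, limma), and was lost without the 1st or 4th NCAR or the 2nd R6/2 library (highest adjusted p = 0.061, limma).

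At the first ages the cluster showed no more than 1 call in a comparison. In R6/2 1-month input Rian rose, at 769.1, 710.4, 695.4 and 622.0 CPM against 616.3, 556.9, 601.8 and 545.4 CPM in NCAR (log2 0.27 ± 0.07, limma adjusted p = 0.032), and the call held in 2 of the 8 fits. In R6/2 1-month IP Rian was at 102.9, 83.8, 86.9 and 85.8 CPM, against 50.4, 60.4, 60.1 and 60.6 CPM in NCAR, with no overlap, and missed the threshold (log2 0.63 ± 0.09, adjusted p = 0.055, limma). In Q175 2-month IP 17 of 17 tested cluster members had a positive log2 change (median 0.82) and none was called by limma. The 6 of them that passed the filter in both genotypes were positive, with a median of 0.59. Of the 81 members of all classes tested in that comparison, 20 passed the filter only in Q175 and 2 only in WT, and 43 passed in both, with 37 of those 43 positive and a median of 0.33. The cluster members share a transcription unit and their values are not independent. Among the coding neighbours Begain rose in Q175 12-month input (0.28) and in R6/2 3-month input (0.49), and Wdr25 also rose in R6/2 3-month input (0.50).

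Among microRNA hosts and loci, Mir22hg and Mir212 separated the genotypes. Mir22hg, which carries mmu-miR-22, was at 30.6, 29.2, 27.6 and 27.0 CPM in Q175 6-month input, against 20.4, 20.9, 22.3 and 20.8 CPM in WT (log2 0.44 ± 0.06, limma adjusted p = 0.00099). At 12 months it was at 27.2, 32.5, 31.2 and 33.4 CPM in Q175, against 24.1, 19.1, 24.9 and 20.4 CPM in WT (log2 0.50 ± 0.10, adjusted p = 0.0041, limma). Genotypes did not overlap at either age and both calls held in all 8 fits. In R6/2 3-month input it was at 19.4, 18.4, 17.5 and 34.1 CPM, against 17.0, 13.0, 13.4 and 13.4 CPM in NCAR (adjusted p = 0.047, limma), a call held in 3 of the 8 fits and lost with voom weights. Mir22hg shares part of an exon with Tlcd2 on the same strand.

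Mir212, of the activity-regulated Mir132 and Mir212 pair, fell in R6/2 2-month input. It was at 0.779, 0.446, 0.793 and 0.778 CPM in R6/2, against 4.06, 3.92, 2.44 and 3.72 CPM in NCAR (log2 -2.34 ± 0.29, limma adjusted p = 0.00077), with no overlap and in all 8 fits. With 1 scaling over the run, NCAR 2-month input libraries lay between 2.25 and 3.73 CPM, and NCAR 3-month input libraries between 0.361 and 1.80 CPM. At 3 months R6/2 input, at 1.10, 1.02, 0.691 and 0.630 CPM, overlapped NCAR input, at 0.397, 0.448, 2.01 and 1.53 CPM. Mir132 was not in the table of that run.

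Rpph1 rose in 3 comparisons. In Q175 12-month input it was at 5744, 6411, 5995 and 8533 CPM, against 4911, 4570, 4345 and 4299 CPM in WT (log2 0.54 ± 0.12, limma adjusted p = 0.0078), with no overlap and in all 8 fits. In R6/2 2-month input it was at 7053, 4873, 4410 and 6637 CPM, against 3393, 3444, 4088 and 3598 CPM in NCAR (log2 0.64 ± 0.15, adjusted p = 0.021, limma), held in 3 of the 8 fits. The Q175 6-month IP call (log2 0.36 ± 0.08) held in 1 of the 8. Rmrp was not called in any genotype comparison. In Q175 12-month input it was at 2504, 3111, 2286 and 3824 CPM, against 2780, 2484, 2302 and 1899 CPM in WT.

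Scarna13 rose in R6/2 3-month IP, at 81.5, 101.8, 73.0 and 95.7 CPM against 40.9, 46.0, 53.4 and 39.8 CPM in NCAR (log2 0.97 ± 0.14, limma adjusted p = 0.0026), with no overlap and in all 8 fits. In R6/2 3-month input it was at 86.0, 71.2, 64.5 and 108.1 CPM, against 69.1, 48.8, 40.8 and 50.8 CPM in NCAR (log2 0.65 ± 0.18), with overlap; it was lost without the 2nd, 3rd or 4th NCAR or the 1st R6/2 library (highest adjusted p = 0.062, limma). In Q175 12-month input the call was at 0.29 ± 0.08, held in 3 of the 8. Of the other small RNAs, Scarna6 fell in Q175 6-month input (log2 -0.55 ± 0.15, held in 3 of 8). Snora61 rose in Q175 12-month input, at 0.633, 0.600, 0.704 and 0.918 CPM against 0.356, 0.369, 0.256 and 0.448 CPM in WT, a call held in 1 of 8. Snora61 lies in an exon of Snhg12 and passed the filter in that comparison only in Q175, which favours a higher level in Q175.

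Snhg12 rose in 4 input comparisons, by 0.30 ± 0.08 in Q175 at 6 and at 12 months, 0.61 ± 0.17 in R6/2 at 2 months and 0.59 ± 0.15 in R6/2 at 3 months. In R6/2 3-month input it was at 22.2, 19.7, 18.4 and 27.8 CPM, against 16.3, 15.9, 13.9 and 12.3 CPM in NCAR (limma adjusted p = 0.017), held in 7 of the 8 fits and lost without the 4th NCAR library (adjusted p = 0.052, limma). The Q175 12-month call was lost without the 3rd or 4th WT library. Snhg7 rose in R6/2 at 3 months in IP, at 1.28, 1.95, 1.24 and 1.59 CPM against 0.580, 0.908, 0.776 and 0.437 CPM in NCAR, and in input (log2 0.82 ± 0.24), each held in 3 of 8. Snhg8 rose in R6/2 2-month input (0.50 ± 0.11, held in 6 of 8 and lost without the 1st or 4th R6/2 library, highest adjusted p = 0.055, limma). Snhg4 rose in Q175 6-month input (0.38 ± 0.11, held in 1 of 8), and Gas5 in Q175 12-month input (0.19 ± 0.05, held in 3 of 8).

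The remaining calls were microRNA loci at low levels. Mir3093 fell in Q175 12-month input, at 1.42, 1.07, 1.03 and 1.10 CPM against 1.89, 1.99, 2.92 and 2.04 CPM in WT (log2 -0.92 ± 0.20, limma adjusted p = 0.0077), and held in all 8 fits. Mir5103 fell in the same comparison (log2 -1.04 ± 0.33), did not pass the filter in both genotypes and held in none of the 8. Mir1898, in an intron of Zfr, fell in R6/2 3-month input, at 0.570, 0.386, 0.288 and 0.512 CPM against 1.33, 1.23, 1.45 and 0.924 CPM in NCAR, and was lost without the 2nd or 3rd NCAR or the 3rd R6/2 library (highest adjusted p = 0.054, limma). Mir1898 passed the filter only in NCAR, which favours a lower level in R6/2.

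The test of genotype in IP minus genotype in input called no member at any age in either model, by limma or with voom weights. At an unadjusted p under 0.05 it held 25 of 129, 2 of 132 and 2 of 132 members in the Q175 cohort at 2, 6 and 12 months. Of all genes, 565 of 15556, 794 of 15642 and 924 of 15646 were under that same unadjusted threshold. By adjusted p, 0.00643%, 0.0895% and 0.121% of all genes were called. In the R6/2 cohort 12 of 199, 8 of 130 and 3 of 128 members were under the unadjusted threshold at 1, 2 and 3 months. Of all genes, 1349 of 15901, 1346 of 15593 and 1221 of 15633 were under it. By adjusted p, 0%, 0.0577% and 0.154% of all genes were called. For Scarna13 in R6/2 at 3 months the difference between IP and input changes was 0.35 ± 0.25 (adjusted p = 0.86, limma), and for Miat in Q175 at 12 months it was 0.09 ± 0.18 (adjusted p = 1.0, limma).

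Counts for the protein-coding partners of these RNAs are set against the 18.4% of all genes called in Q175 12-month input and the 28.1% in R6/2 3-month input. In Q175 12-month input, 0 of 14 snoRNP protein genes were called higher and 1 lower, Nhp2 (-0.35), and 0 of 11 RNase P and RNase MRP protein genes higher and 1 lower, Pop5 (-0.24). Limma called 0 of 10 Cajal body factors and 0 of 14 paraspeckle protein genes there. At an unadjusted p under 0.05 there were 2 of each, and 4948 of all 15555 genes. Among microRNA biogenesis genes 1 of 14 was higher, Prkra (0.30), and 2 lower, Ago4 (-0.73) and Drosha (-0.20). Of the genes of nonsense-mediated decay, Smg5 (-0.48) and Upf1 (-0.27) were lower and no other was called. In R6/2 3-month input Nhp2 fell (-0.61) and Nop56 rose (0.46) among snoRNP genes, Rpp21 rose (0.43), Gemin2 (0.71) and Toe1 (0.69) rose, and Ago4 (-0.66), Ago2 (-0.50) and Drosha (-0.57) fell while Dgcr8 (0.38) and 1 other rose. For R6/2 3-month input these lists are given by named genes, without a total of those called. Among the noncoding RNAs outside the symbol rule, the striatal transcripts Dlx6os1 (-0.32 in Q175 12-month input and -0.63 in R6/2 3-month input) and Dlx1as (-0.59 and -0.70) fell. The rest of that list is not described here.

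Cell type markers moved in the same comparisons. Medium spiny neuron markers were called lower at 10 of 11 in Q175 12-month IP (median -1.24), Q175 12-month input (-0.95), R6/2 3-month IP (-1.43) and R6/2 3-month input (-1.38). Input of R6/2 mice at 3 months showed more, since 11 of 12 microglia markers (median -1.11) and 12 of 16 astrocyte markers (-0.63) were lower too. In Q175 12-month IP none of the 16 astrocyte markers was called by limma (median 0.03). At an unadjusted p under 0.05 there were 3 of them, and 3311 of all 15190 genes. The part of these shifts in the members' changes was not tested.

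With age, Neat1 rose in WT mice in IP and input. In IP it was at 20.2, 27.5, 35.2 and 25.6 CPM at 12 months, against 9.91, 10.1, 8.95 and 10.5 CPM at 2 months (log2 1.43 ± 0.14, limma adjusted p = 0.00030). In input it was between 92.1 and 107.5 CPM in the 4 libraries at 12 months, against 27.7, 38.6, 37.5 and 53.5 CPM at 2 months (log2 1.39 ± 0.15, adjusted p = 0.00036, limma). Ages did not overlap in either RNA type, as for 28.15% of all genes in IP and 28.22% in input. Both calls held in all 8 fits without 1 library. In all, 5 of 76 members were called in IP, where 25.6% of all genes were called, and 12 of 130 in input, where 26.2% were.

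**Figure D5:**
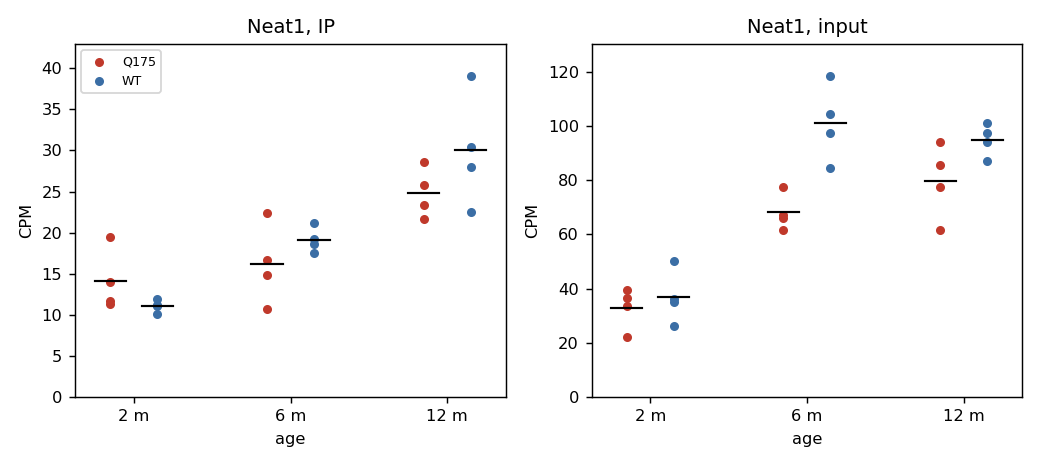
Neat1 CPM, with 1 scaling over the run, in the 4 Q175 (red) and 4 WT (blue) libraries of each age in IP and in input, with black bars at the mean. WT input averaged 36.8 CPM at 2 months, 101.2 CPM at 6 months and 95.0 CPM at 12 months, and Q175 input 32.9, 68.1 and 79.8 CPM at the same ages.

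The other IP calls with age were Mir6390 and Snhg18, which fell, and Snhg1 and Snhg12, which rose. Mir6390 was at 3.44, 3.59, 3.08 and 2.65 CPM at 12 months, against 5.66, 5.00, 5.47 and 4.75 CPM at 2 months (log2 -0.72 ± 0.12, limma adjusted p = 0.0022). Snhg18 was at 1.25, 1.22, 1.25 and 0.962 CPM at 12 months, against 1.64, 1.75, 2.05 and 1.82 CPM at 2 months (log2 -0.64 ± 0.14). Both held in all 8 fits. They are 2 of the 7 members called higher in IP than in input in at least 1 comparison. The other five were not called with age in IP (Mir568 -0.19, Mir341 -0.02, Mir8091 0.16, Mir6236 0.22 and Mir1901 0.42). Snhg1 and Snhg12 rose by 0.36 each and held in 3 of 8.

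All 12 input calls with age were in the higher direction, 6 of them for members that passed the filter at both ages, and 6 of the 29 tested members of the chromosome 12 cluster were among the 12 (median 0.37, 0.00 over all genes). Of all genes, 14.4% were called higher in that comparison. The 16 cluster members that passed at both ages had 13 positive changes, 3 of them called, and a median of 0.30. Meg3 was at 659.6, 787.8, 795.8 and 705.3 CPM at 12 months, against 585.8, 639.6, 608.4 and 583.0 CPM at 2 months (log2 0.28 ± 0.06, limma adjusted p = 0.0082), and Mirg rose by 0.31 ± 0.09 (held in 4 of 8 fits). The others of the cluster, Mir377, Mir1193, Mir667 and Mir496a, were at under 1.3 CPM in every library and held in 3, 1, 0 and 1 of 8 fits. Mir3060, in an intron of Rnf215, was at 0.681, 0.752, 0.586 and 0.895 CPM at 12 months, against 0.181, 0.315, 0.355 and 0.134 CPM at 2 months, and held in all 8. Mir3060 passed the filter only at 12 months, which favours a higher level at that age. Mir338, a microRNA of oligodendrocyte maturation in an intron of Aatk, rose by 1.46 ± 0.41 (held in 4 of 8), Mir1901 by 1.17 ± 0.32 (5 of 8), Mir1249 by 0.78 ± 0.21 (6 of 8) and Gas5 by 0.15 ± 0.05 (2 of 8). Over the same ages 11 of 12 microglia markers (median 0.82) and 5 of 10 oligodendrocyte markers rose in WT input, and 10 of 11 medium spiny neuron markers fell (-0.30). In WT IP 5 of 12 microglia and 6 of 10 oligodendrocyte markers rose and 10 of 16 astrocyte markers fell (-0.46). The part of these markers in the members' changes was not tested.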

How the data were processed

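The deposited tables hold log2 CPM per gene and library, made by the authors; per the submitters' processing notes the tools were STAR, HTSeq, edgeR and limma on mm10, with no versions or strand setting given in the sources used here. Values were whole reads after reversing the log2 scale with a prior of 0.25 reads (tolerance 0.01), and reads and library sizes were recovered from them. Groups came from the labels. For each comparison, libraries were scaled by TMM (trims 30% and 5%), a gene was kept if, scaled to the median library size, it reached 10 reads in 4 or more libraries, with 15 reads summed over all, and log2 CPM (prior 0.25) was tested with limma 3.58.1 (trend, R 4.3.3), with Benjamini-Hochberg adjustment over all genes kept and calls at 0.05. The prior understates the change of low genes. Per-library CPM values are scaled within their comparison, and those in figures or said to be on 1 scaling are scaled over the run. The limma steps were tested on simulated data. Overlaps used GENCODE vM21, and hairpins were matched to transcripts with blastn 2.17.0. Python 3.11.15 with pandas 2.3.3, numpy 2.4.6 and matplotlib 3.10.9 was used.

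The genes named are the 9 members given by whole symbol, the 3 highest and 3 lowest members of each class by median IP over input in controls, up to 10 called members per genotype, interaction or age comparison by size, and up to 4 genes of each pathway list by p. Mir682, Mir703, Scarna2, Scarna9 and the tested but uncalled or overlapping genes were added for a stated fact after their values were seen. Members and lists were chosen with earlier results of these data known. Alternatives were the deposited scaling, no filter, a prior of 2, voom weights, 1 fit over all libraries of the run, and leaving out each library in turn. When a library was left out, the filter asked for as many libraries as the smaller group then held. Intervals for counting error are not given, since the 4 libraries per group set the precision.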

Additional observations from a re-analysis of the deposited data

Results flagged for a closer look

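In 336 groups of 4 libraries, over 14 members, 1 library lay far from the other 3 in 25 groups by Dixon's test at the 95% level; chance gives about 1 group in 20. CPM values on 1 scaling per run follow, each with the nearest other library. In Rpph1, the R6/2 2-month IP library was at 598.7 CPM (nearest 142.0), and a WT 6-month IP library at 155.6 (184.7). For Meg3 a Q175 6-month IP library was at 204.5 CPM (104.6) and an NCAR 1-month input library at 1023 (884.7). Gas5 had 5 such libraries: 15.99 CPM in R6/2 3-month IP (21.76), 34.93 in WT 12-month IP (30.02), 29.97 in NCAR 1-month IP (13.77), 101.4 in NCAR 1-month input (54.23) and 84.3 in NCAR 2-month input (53.54).

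Mir22hg had 5: 30.89 CPM in R6/2 3-month input (17.67), 6.208 in WT 2-month IP (7.763), 20.33 in WT 6-month input (18.81), 9.798 in NCAR 2-month IP (4.575) and 15.47 in NCAR 3-month input (12.07). The R6/2 value touches a call given above, which was kept in 3 of 8 fits without 1 library. Miat had 14.23 CPM in Q175 6-month IP (9.111), 59.52 in R6/2 3-month input (75.67) and 43.21 in WT 2-month input (40.74). Mir453 had 0.7345 CPM in R6/2 2-month IP (0.585), 1.057 in WT 2-month input (0.6899) and 0.2232 in NCAR 3-month IP (0.3652). Mirg had 5.199 CPM in R6/2 2-month IP (4.25) and 13.98 in NCAR 1-month input (16.83). The remaining values were Malat1 at 5735 CPM in R6/2 2-month input (3957), Neat1 at 21.49 in NCAR 1-month input (10.73) and Rian at 56.9 in NCAR 1-month IP (68.9). No cause was tested.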

How the results depend on the processing

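No count or named gene changed direction, and with voom weights or a prior of 2 the counts of called members in all 32 comparisons stayed within 1.5 times. In 1 fit over all libraries of the run, called members numbered 2 in Q175 IP at 2 months (0 in the separate fit), 4 at 6 months (1) and 4 at 12 months (1), and 3 in Q175 input at 6 months (7) and 5 at 12 months (13). In the R6/2 cohort that fit gave 2 in IP at 1 month (0), 13 at 2 months (2) and 10 at 3 months (3), and 0 in input at 1 month (1). For age in WT it gave 14 in IP (5) and 3 in input (12). The deposited scaling gave 15 in Q175 input at 6 months and 2 in Q175 IP at 12 months. With no filter, Q175 IP at 6 months had 0 and R6/2 IP at 3 months 5. The cause was not tested. Leaving out 1 library gave 0 to 3 members in Q175 IP at 6 months, 0 to 2 at 12 months, 3 to 6 in Q175 input at 6 months and 8 to 11 at 12 months. It gave 0 to 1, 0 to 14 and 1 to 15 in R6/2 IP at 1, 2 and 3 months, 0 to 3, 2 to 6 and 5 to 11 in R6/2 input, 3 to 6 for age in IP and 3 to 12 for age in input. The 14 came without the 2nd NCAR 2-month IP library and the 15 without the 3rd NCAR 3-month IP library. The filter was looser in every fit without 1 library, and its part in these counts was not tested. Counts of IP over input stayed within 1.5 times in all settings run. Many microRNA loci and snoRNAs had under 1 CPM in IP, which limits their precision. No paired analysis was possible because the labels number the libraries only as separate samples, and replicate numbers were given in accession order.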
